A study of Rattus norvegicus with 14 samples.

Results

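Gnas, Igf2r, Grb10, Dlk1 and Zrsr1 are 5 imprinted genes, for which only the copy from one parent is active in some or all tissues. They were followed in sperm DNA of Wistar rat males whose CpG methylation had been read by reduced representation bisulfite sequencing (RRBS), an assay of CpG-rich restriction fragments. The members are all listed intervals whose nearest promoter, as annotated in the deposited tables, is that of one of these genes: 30 of 8555 intervals in 5 tables. Gnas holds 11 of them, Zrsr1 8, Igf2r 5, Grb10 4 and Dlk1 2, and intervals that overlap between tables leave 18 separate loci. The 14 libraries came from 4 groups of males of the parental generation: separation from the dam in early life and a later high-fat diet (ELS-HFD, 3 libraries), the same separation with standard chow (ELS, 4 libraries), high-fat diet without separation (HFD, 4 libraries) and neither (control, 3 libraries). Separation lasted 3 h per day for 16 days from postnatal day 1, all groups went through an elevated plus maze at about postnatal day 57, and the diets parted at postnatal day 60. The study asks how separation and diet, alone and together, mark the sperm of these males. Age at collection and the composition of the diets are not in the labels, which also do not tie libraries to litters or animals, so the p-values below measure the spread between these libraries. The series text speaks of amygdala RNA, whereas the labels and tables are of sperm methylation, and these were followed.

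Imprinting rests on short stretches of DNA, differentially methylated regions, that are methylated in either the egg or the sperm and keep that state after fertilisation. In mouse, such regions at Gnas, Igf2r, Grb10 and Zrsr1 are methylated in eggs and unmethylated in sperm, while the region between Dlk1 and Meg3 is methylated in sperm. Whether the listed intervals of Gnas, Igf2r, Grb10 and Zrsr1 lie inside such regions in the rat was not determined. Gnas encodes the G protein alpha subunit that couples receptors to adenylyl cyclase and has several alternative starts. In mouse these lie in the order of the neuroendocrine secretory protein, the extra-large G protein subunit, an untranslated first exon inside an egg-methylated region, and the standard G protein subunit. Igf2r encodes the receptor that clears insulin-like growth factor 2. Grb10 encodes an adaptor that inhibits insulin and growth factor receptors, Dlk1 a transmembrane protein related to Notch ligands, and Zrsr1 a splicing factor whose gene lies, in mouse, inside an intron of Commd1. Sperm is a bulk sample here, so a methylation of a few percent cannot separate a few fully methylated sperm, or other cells, from slight methylation of many.

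Listed intervals stood next to annotated starts of Gnas, Igf2r and Grb10. The RefSeq promoter windows of these genes printed here (250 bases before to 50 after a start, assembly GRCr8) show CpG-rich sequence of the kind that the assay samples. Capitals mark every CG, the dinucleotide in which methylation was read; the intervals themselves are in Rnor_6.0, and their place within these windows was not determined. Windows were found for 4 of the 5 genes by symbol, and RefSeq starts were not matched to the annotated starts of the intervals. The first Gnas window is the most upstream of the 3 RefSeq starts and the second the most downstream.
Gnas upstream start (chr3:183489398-183489697, plus strand): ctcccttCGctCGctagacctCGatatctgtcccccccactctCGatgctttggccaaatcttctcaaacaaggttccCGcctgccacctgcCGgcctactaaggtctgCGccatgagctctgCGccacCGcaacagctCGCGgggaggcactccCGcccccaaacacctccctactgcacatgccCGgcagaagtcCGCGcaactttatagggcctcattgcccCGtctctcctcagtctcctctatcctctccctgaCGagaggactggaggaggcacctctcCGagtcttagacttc
Gnas downstream start (chr3:183537089-183537388, plus strand): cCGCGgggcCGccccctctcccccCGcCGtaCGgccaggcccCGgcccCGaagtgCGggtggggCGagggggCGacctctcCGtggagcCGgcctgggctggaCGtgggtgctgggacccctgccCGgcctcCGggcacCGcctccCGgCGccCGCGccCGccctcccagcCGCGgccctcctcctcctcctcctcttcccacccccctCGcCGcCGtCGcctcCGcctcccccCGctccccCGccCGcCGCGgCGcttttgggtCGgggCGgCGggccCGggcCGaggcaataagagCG
Igf2r start (chr1:50526628-50526927, plus strand): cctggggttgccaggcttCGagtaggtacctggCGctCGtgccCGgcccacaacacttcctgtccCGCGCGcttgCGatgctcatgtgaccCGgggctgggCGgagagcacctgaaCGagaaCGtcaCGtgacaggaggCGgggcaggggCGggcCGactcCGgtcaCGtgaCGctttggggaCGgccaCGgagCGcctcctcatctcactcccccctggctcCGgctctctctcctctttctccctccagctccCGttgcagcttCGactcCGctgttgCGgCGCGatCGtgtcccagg
Grb10 start (chr14:90816338-90816637, minus strand): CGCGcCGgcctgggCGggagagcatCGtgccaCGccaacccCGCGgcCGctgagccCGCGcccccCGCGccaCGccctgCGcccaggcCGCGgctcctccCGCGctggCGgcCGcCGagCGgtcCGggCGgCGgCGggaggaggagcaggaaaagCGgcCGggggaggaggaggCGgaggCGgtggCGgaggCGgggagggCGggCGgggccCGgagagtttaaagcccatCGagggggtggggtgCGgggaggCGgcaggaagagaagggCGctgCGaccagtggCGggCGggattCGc
The motif CG occurred 18 times in the upstream Gnas window, 41 times in the downstream one, 30 times in Igf2r and 44 times in Grb10, against a median of 7 over all 33469 windows of this length. CG is the same on both strands and was found in 94.5% of all windows. The motif CCGG, which contains CG and is where the usual RRBS enzyme cuts, occurred 2, 6, 4 and 4 times in that order and in 51.4% of all windows. The window of the middle Gnas start, not printed, was poorer, with CG 12 times and CCGG 1 time. Fewer CG were found in 62.9% of all windows.

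The intervals had features that the gene names did not fix. Their median methylation over the libraries was 3.37%, against 12.8% over all listed intervals, and 24 of the 30 lay under 10%, as did 45.8% of all. Promoters held 10 of the 30 (14.2% of all listed intervals), exons 6 (24.8% of all), introns 14 (19.7% of all) and intergenic sequence 0 (37.6% of all). A CpG fell every 5.63 bp in the median member interval and every 8.9 bp in the median of all. The median absolute difference between groups was 3.68 percentage points, against 3.73 for all listed intervals. Low methylation was thus shared by Gnas, Igf2r and Grb10 at every listed interval, with interval means of 1.63 to 5.65%, 1.48 to 3.46% and 1.80 to 4.36%. Dlk1, at 16.2%, and Zrsr1, at 3.65 to 21.5%, reached higher levels. Every table lists only intervals with at least 10 CpGs and a deposited difference of at least 2.5 percentage points, so each of the 30 was listed for a difference, and CpGs of these genes that did not differ by that much were not analysed here.

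**Figure D1:**
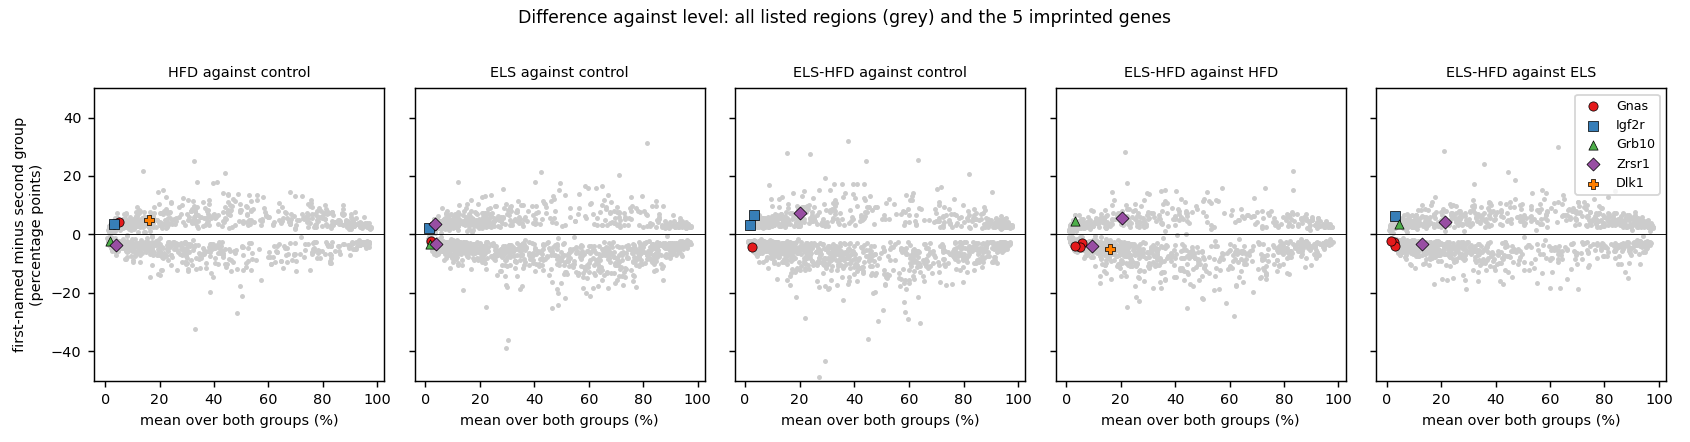
Difference between the group means (percentage points, first-named minus second group) against the mean methylation over both groups (%), 1 panel per comparison; grey points are all listed intervals and coloured symbols the 5 genes. The members lie at the low end of the methylation axis, at or under 21.5%, with differences of at most 7.44 percentage points in size.

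Set against the spread between libraries, none of the 30 differences passed limma with Benjamini-Hochberg adjustment over all intervals of its table, with adjusted p-values of 0.1003 to 0.501. At an unadjusted limma p under 0.05 there were 12 of 30, against 26.1% of all listed intervals, and the libraries of the 2 groups did not overlap at 10 of 30, against 27.3% of all. The authors' own call, q under 0.05 as the authors' deposited table gives it, was made at 2 of the 30, both at the same Gnas locus; 0.678% of all listed intervals were called. How that q-value weighs the spread between libraries is not given in the sources used here.

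The comparisons differed in how many members they held. For HFD against control, 4 of 6 intervals were higher (56.4% of all listed intervals were), 2 had an unadjusted limma p under 0.05 (22.8% of all), 1 had no overlap between groups (22.6% of all) and 1 was called by the authors (0.632% of all). For ELS against control, 3 of 6 were higher (39.1% of all) and 3 lower (60.9% of all), 3 had an unadjusted p under 0.05 (26.9% of all), 3 had no overlap (25.7% of all; the 3 were higher in ELS, and 9.57% of all were higher without overlap) and 0 were called (0.919% of all). For ELS-HFD against control, 3 of 4 were higher (30% of all), 1 had an unadjusted p under 0.05 (27.9% of all; 7.93% with ELS-HFD higher, as here), 2 had no overlap (38.7% of all; 28.7% with ELS-HFD lower, 1 of the 2) and 0 were called (0.696% of all). For ELS-HFD against HFD, 2 of 7 were higher (26.1% of all), 3 had an unadjusted p under 0.05 (25.2% of all), 1 of them with ELS-HFD higher (5.08% of all), 3 had no overlap (23.9% of all) and 1 was called (0.423% of all). For ELS-HFD against ELS, 3 of 7 were higher (38.1% of all), 3 had an unadjusted p under 0.05 (27.3% of all), 1 had no overlap (24.1% of all) and 0 were called (0.686% of all). The Kolmogorov-Smirnov p in the authors' deposited table was under 0.05 at 6 of 6 intervals for HFD against control (49.8% of all) and 3 of 6 for ELS against control (51.1% of all). It was so at 3 of 4 for ELS-HFD against control (51.3% of all), 4 of 7 for ELS-HFD against HFD (49.5% of all) and 5 of 7 for ELS-HFD against ELS (51.5% of all). limma with adjustment passed 0 members in each comparison, and 0, 0, 2, 0 and 0 of all listed intervals in the same order (0.107% in ELS-HFD against control). The exact two-sided permutation test cannot go below 0.0571 with 4 against 3 libraries or below 0.1 with 3 against 3.

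In Rnor_6.0, the build of all interval coordinates here, Gnas intervals were listed at 3 starts and mostly within a short stretch before the most downstream one. Of the 11, 8 have that start (ENSRNOT00000071215; gene ENSRNOG00000047374; chromosome 3) as their nearest promoter, and 6 of these lie in intron 2 of transcript ENSRNOT00000090989, between 3309 and 1646 bp upstream. ELS-HFD was lower than its counterpart at 7 of 7 Gnas intervals, where 70%, 73.9% and 61.9% of all listed intervals were lower in ELS-HFD than in control, HFD and ELS. ELS-HFD was lower with no overlap between libraries at 1 of 1 interval against control (28.7% of all), 2 of 3 against HFD (19.1% of all) and 1 of 3 against ELS (17% of all). These 7 lie at 6 loci and share the same 3 ELS-HFD libraries.

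The locus 1859 to 1824 bp upstream of the downstream start was the one that the authors called, in HFD against control and again in ELS-HFD against HFD. In the HFD comparison with control, over 12 CpGs from 172418704 to 172418760, methylation was 4.99, 5.49, 3.66 and 4.75% in HFD, against 0.958, 2.39 and 0.514% in control. Every HFD library lay above every control library. The difference of 3.44 percentage points had a limma p of 0.00336, or 0.138 adjusted, with an exact permutation p of 0.0571, while the authors' deposited table gives q = 0.00858. On the log2 scale that limma used it was 1.45 ± 0.36 (SE). In ELS-HFD against HFD, over 10 CpGs from 172418745 to 172418790, methylation was 0.952, 0 and 1.61% in ELS-HFD, against 6.11, 4.67, 3.12 and 5.13% in HFD. Again the groups did not overlap, and the difference of -3.90 had a limma p of 0.00214, or 0.156 adjusted, on the log2 scale -1.77 ± 0.41 (SE). The authors' deposited table gives q = 0.0487. The intervals overlap only in part and both comparisons use the same 4 HFD libraries, so they are not independent. ELS was not listed against either group at this locus.

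At 2403 to 2408 bp upstream of the same start ELS was the higher group in both comparisons that list the locus. Over 19 CpGs from 172418142 to 172418234, methylation was 7.26, 2.19, 2.85 and 4.35% in ELS, against 0.844, 1.70 and 0.889% in control. Over 10 of these CpGs, from 172418164 to 172418202, it was 0.556, 0.870 and 0.286% in ELS-HFD and, in ELS, 7.54, 2.25, 3.21 and 5.36%. In neither comparison did the groups overlap, and the first-listed ELS library was the highest in both. The difference was 3.02 percentage points for ELS against control (limma p 0.0120, adjusted 0.126; 1.98 without the first-listed ELS library) and -4.02 for ELS-HFD against ELS (limma p 0.00130, adjusted 0.104). The authors' deposited table gives q-values of 0.291 and 1.

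Further loci of that intron gave smaller or overlapping differences. From 172417202 to 172417362, 3309 bp upstream, the ELS-HFD libraries had 0.156, 2.07 and 1.56%, and the ELS libraries 6.17, 2.46, 1.71 and 5.25% (limma p 0.0400, adjusted 0.169). One ELS library, at 1.71%, lay inside the ELS-HFD range. From 172418912 to 172418979, 1646 bp upstream, ELS had a lower mean than control, unlike at the locus 2403 bp upstream. ELS libraries had 0.452, 1.03, 0 and 3.16%, and control libraries 3.87, 1.55 and 4.95%, with overlap at one library of each group and a limma p of 0.0502. Along the same intron the ELS libraries were thus above control at one locus and mostly below it at another.

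At the downstream start itself methylation was close to 0 in ELS-HFD. Over 172420571 to 172420634 methylation was 0.526, 0 and 0.625% in ELS-HFD, against 1.67, 1.00 and 11.1% in control. The groups did not overlap, but the difference of -4.21 rested on the third-listed control library and was -0.950 without it (limma p 0.0526 with all libraries). Over 172420563 to 172420618 the ELS-HFD libraries had 0, 0 and 0.744%, and the ELS libraries 1.20, 3.62, 5.81 and 0%, which overlap. The difference of -2.41 was -1.36 without the third-listed ELS library.

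The upstream Gnas intervals belong to other starts. Exon 1 of transcript ENSRNOT00000090989 was listed in 2 tables over nearly the same bases, 172387720 to 172387823 and from 172387721. HFD libraries had 2.25, 4.35, 15.3 and 4.92%, and control libraries 0.189, 1.49 and 5.78%. The second listing set ELS-HFD libraries at 3.21, 2.44 and 1.65% against the same HFD values. Groups overlapped in both, and the difference of 4.23 in HFD against control was 1.36 without the third-listed HFD library, as -4.28 became -1.41 in ELS-HFD against HFD. The most upstream interval, at the promoter of ENSRNOT00000035916 (172374836 to 172375233), had 4.55, 3.80 and 3.32% in ELS-HFD libraries, against 4.90, 8.21, 6.34 and 8.43% in HFD libraries. All ELS-HFD libraries were lower there, by 3.08 percentage points on average (limma p 0.0496, adjusted 0.198), with 12 CpGs spread over 398 bp.

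**Figure D2:**
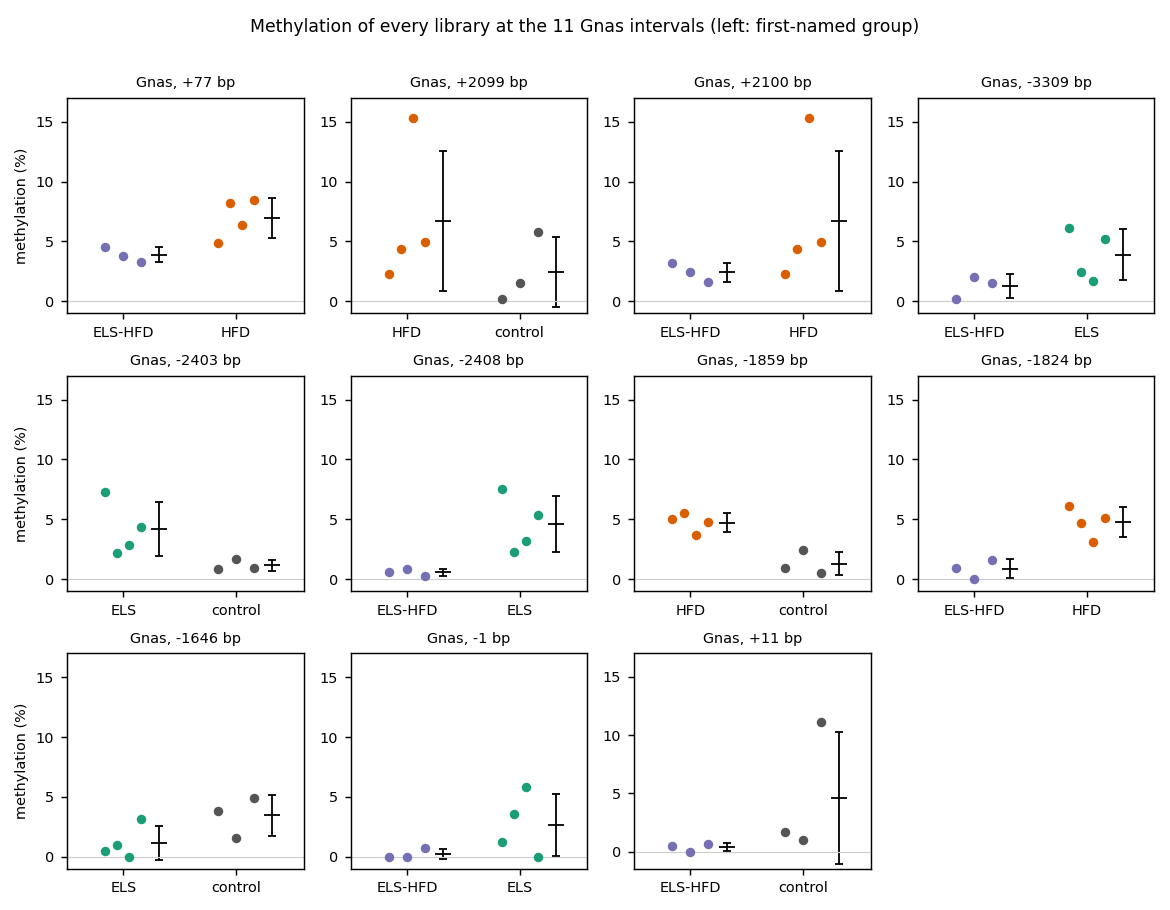
Methylation (%) of every library at the 11 Gnas intervals, 1 panel each in order along the chromosome, with the first-named group on the left; the panel title gives the distance to the nearest annotated Gnas start, black bars are mean ± SD. The HFD libraries lie between 3.12 and 6.11% in both panels at -1859 and -1824 bp, above all control and ELS-HFD libraries, while 1 HFD library at 15.3% sets the difference in the panels at +2099 and +2100 bp.

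**Figure D3:**
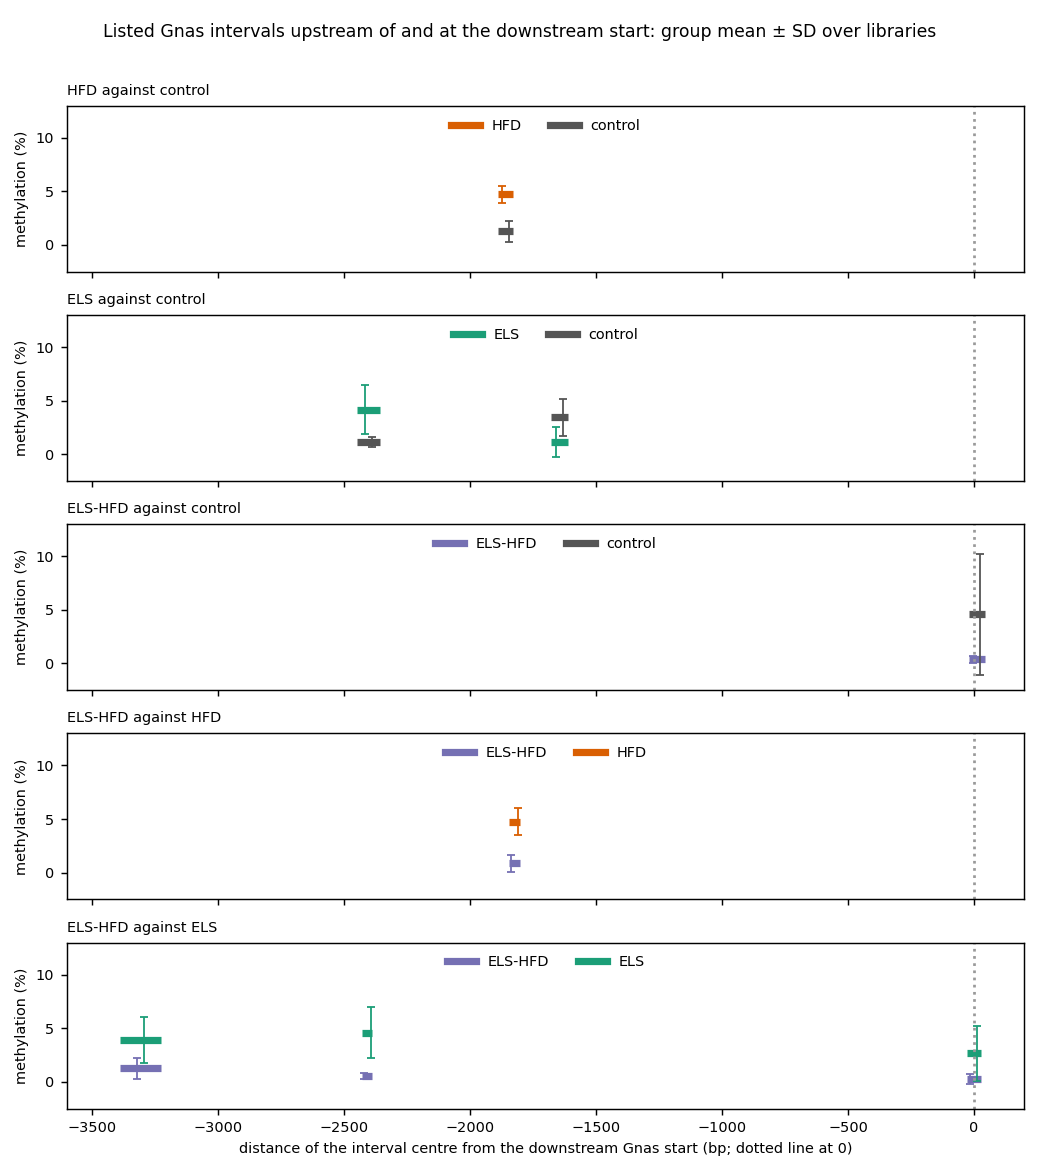
Group mean (%; thick bars spanning the interval) ± SD over libraries (thin bars) at the 8 Gnas intervals nearest to the downstream start, by distance from that start in bp, 1 panel per comparison. No locus is listed in more than 2 comparisons, and ELS-HFD lies under the other group wherever it is shown.

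Igf2r was the gene with a single direction: all 5 intervals were higher in the first-named group. The comparisons were HFD, ELS and ELS-HFD against control and ELS-HFD against ELS. Of all listed intervals, 56.4%, 39.1%, 30% and 38.1% were higher in the same order. These comparisons share libraries, and the 5 intervals lie at 3 separate loci. All lie between 194 bp before and 149 bp after the start (ENSRNOT00000021840; gene ENSRNOG00000014997; chromosome 1), and 3 of the 5 had an unadjusted limma p under 0.05, against 26.1% of all listed intervals and 8.56% of all with the first-named group higher. Exon 1 of 48 had the separated groups apart from control. Over 10 CpGs from 48176235 to 48176276, methylation was 1.20, 1.65, 2.26 and 4.51% in ELS, against 0, 0.758 and 0% in control. Over 16 CpGs from 48176231 to 48176279 it was 4.12, 1.47 and 4.92% in ELS-HFD, against 0, 0.490 and 0% in control. Neither pair of groups overlapped. The differences were 2.15 percentage points for ELS (limma p 0.00604, adjusted 0.102) and 3.34 for ELS-HFD (limma p 0.00257, adjusted 0.103). Both use the same 3 control libraries, and q was 1 for both in the authors' deposited table.

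Next to it, from 48176146 to 48176222 in the Igf2r promoter, the ELS-HFD libraries split. They had 7.06, 13.1 and 0%, against 0, 0.549 and 0% in control libraries and 0.452, 0, 0.699 and 0.513% in ELS libraries. The first 2 ELS-HFD libraries were thus above all others, and the third-listed one was at 0. The difference was 6.55 percentage points against control (limma p 0.0548, adjusted 0.183) and 6.32 against ELS (limma p 0.0410, adjusted 0.170). Without the third-listed ELS-HFD library the difference against ELS was 9.68, the one member difference under any setting to pass limma with adjustment (adjusted p 0.0356, over 2 ELS-HFD libraries), and without the library at 13.1% it was 3.11. Against control it was 9.92 and 3.35 without the same libraries. Upstream, from 48175888 to 48175936, HFD libraries had 1.603, 2.59, 11.4 and 3.65%, and control libraries 0.826, 0.925 and 1.90%. The difference of 3.60 was 1.40 without the third-listed HFD library, which was also the one at 15.3% in exon 1 of the Gnas transcript.

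Grb10 intervals lay at the promoter and in intron 1 of 17 (ENSRNOT00000044726, gene ENSRNOG00000004290, chromosome 14). The promoter was listed only for ELS-HFD against HFD and against ELS. Intron 1 was listed only for HFD and ELS against control, so no comparison covers both places. At the promoter, from 92117974 to 92118047, ELS-HFD libraries had 2.34, 4.67 and 10.03%, and HFD libraries 0.588, 1.08, 1.00 and 1.75%. The groups did not overlap, and the difference of 4.58 percentage points (limma p 0.00754, adjusted 0.159) was 2.40 without the third-listed ELS-HFD library. Set against ELS, over 92117974 to 92118037, ELS-HFD libraries had 2.39, 4.94 and 12.0%, and ELS libraries 1.73, 1.36, 5.41 and 2.63%, with overlap. That difference of 3.67 was 0.881 without the same library and 5.71 without the first-listed one.

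In intron 1 the groups with diet or separation alone had the lower means. From 92117002 to 92117062, HFD libraries had 1.80, 1.13, 0 and 0.683%, and control libraries 1.78, 4.67 and 3.18% (difference -2.31, limma p 0.0230, adjusted 0.182). Only the highest HFD and the lowest control library overlapped. From 92117134 to 92117473, ELS libraries had 0.812, 0.911, 0.154 and 0%, and control libraries 0, 0.172 and 10.6%. The mean difference of -3.12 there was 0.383, of the opposite sign, without the third-listed control library, and -4.91 and -4.82 without the first- or second-listed one.

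Dlk1 had one locus, listed in 2 tables over the same 10 CpGs in 35 bp, from 133561435 to 133561469 in intron 1 of 4 of ENSRNOT00000006339 (gene ENSRNOG00000019584; chromosome 6), 8631 bp from its start. ELS-HFD libraries had 22.5, 7.55 and 10.3%, HFD libraries 14.2, 15.6, 21.2 and 22.2%, and control libraries 26.1, 7.03 and 7.25%. HFD values were close together, whereas in ELS-HFD and in control the first-listed library was high and the other 2 were low. The difference was -4.85 percentage points for ELS-HFD against HFD (limma p 0.216) and 4.84 for HFD against control (limma p 0.217), with overlapping groups in both. Without the first-listed ELS-HFD library the difference from HFD was -9.38, and -1.90 without the second-listed one. That of HFD from control was 11.1, 1.63 and 1.74 without the first-, second- or third-listed control library. The interval lies inside the annotated gene; the sperm-methylated region known from mouse lies outside Dlk1, between it and Meg3.

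Zrsr1 intervals (ENSRNOT00000012767; gene ENSRNOG00000009639; chromosome 14) formed 4 loci, of which one lay far from the gene. Interval means ran from 3.65% at -1428 bp to 21.5% at -57624 bp. At -1428 bp, in intron 1 of 2 of transcript ENSRNOT00000012750 (107748704 to 107748764), ELS libraries had 4.90, 6.71, 3.12 and 6.16%, and control libraries 1.02, 2.49 and 1.12%. There the groups did not overlap, with a difference of 3.68 percentage points and the smallest adjusted limma p of all 30 intervals (p 0.00414, adjusted 0.1003). In the promoter, 721 and 731 bp upstream, the control group was spread instead. HFD libraries had 2.44, 2.63, 1.75 and 2.62%, and control libraries 1.63, 5.84 and 10.4% (107749401 to 107749481). ELS libraries had 4.03, 0.526, 3.10 and 1.83%, and control libraries 0.244, 5.43 and 11.1% (107749411 to 107749452). Both differences, -3.60 and -3.21, shrank to -1.38 and -0.467 without the third-listed control library, and were -5.77 and -5.88 without the first-listed one.

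The Zrsr1 exon and the interval 57624 bp from the Zrsr1 start, in an intron of transcript ENSRNOT00000012750, were partly methylated. In the exon, from 107751128 to 107751216, ELS-HFD libraries had 5.85, 6.12 and 9.32%, and HFD libraries 11.7, 13.8, 8.86 and 9.89% (difference -3.98, limma p 0.0833). From 107751190 to 107751490 ELS-HFD libraries had 9.90, 10.1 and 13.6%, and ELS libraries 13.997, 9.83, 17.2 and 16.6% (difference -3.23, limma p 0.286). ELS-HFD had the lower mean in both, with overlap. In intron 2 of 2 of ENSRNOT00000012750 (107692507 to 107692570, and from 107692506 for control) all 4 groups could be read. ELS-HFD libraries had 16.0, 22.5 and 33.3%, ELS libraries 25.5, 19.8, 16.9 and 16.7%, HFD libraries 14.9, 17.5, 20.1 and 20.1%, and control libraries 21.5, 8.04 and 19.9%. In order of means this gives 23.9 ± 8.71% (SD, n = 3) in ELS-HFD, 19.7 ± 4.10% (n = 4) in ELS, 18.2 ± 2.51% (n = 4) in HFD and 16.5 ± 7.36% (n = 3) in control. The groups overlapped, and the gaps to ELS-HFD had limma p-values of 0.447 for ELS, 0.281 for HFD and 0.235 for control. The other pairs were not listed here, and their differences of means were smaller than the larger of their SDs. The excess over ELS turned to -0.477 without the third-listed ELS-HFD library, and those over HFD and control were 1.104 and 2.77. Without the first-listed ELS-HFD library the differences were 8.15, 9.73 and 11.4, and without the second-listed control library the one from control was 3.22.

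**Figure D4:**
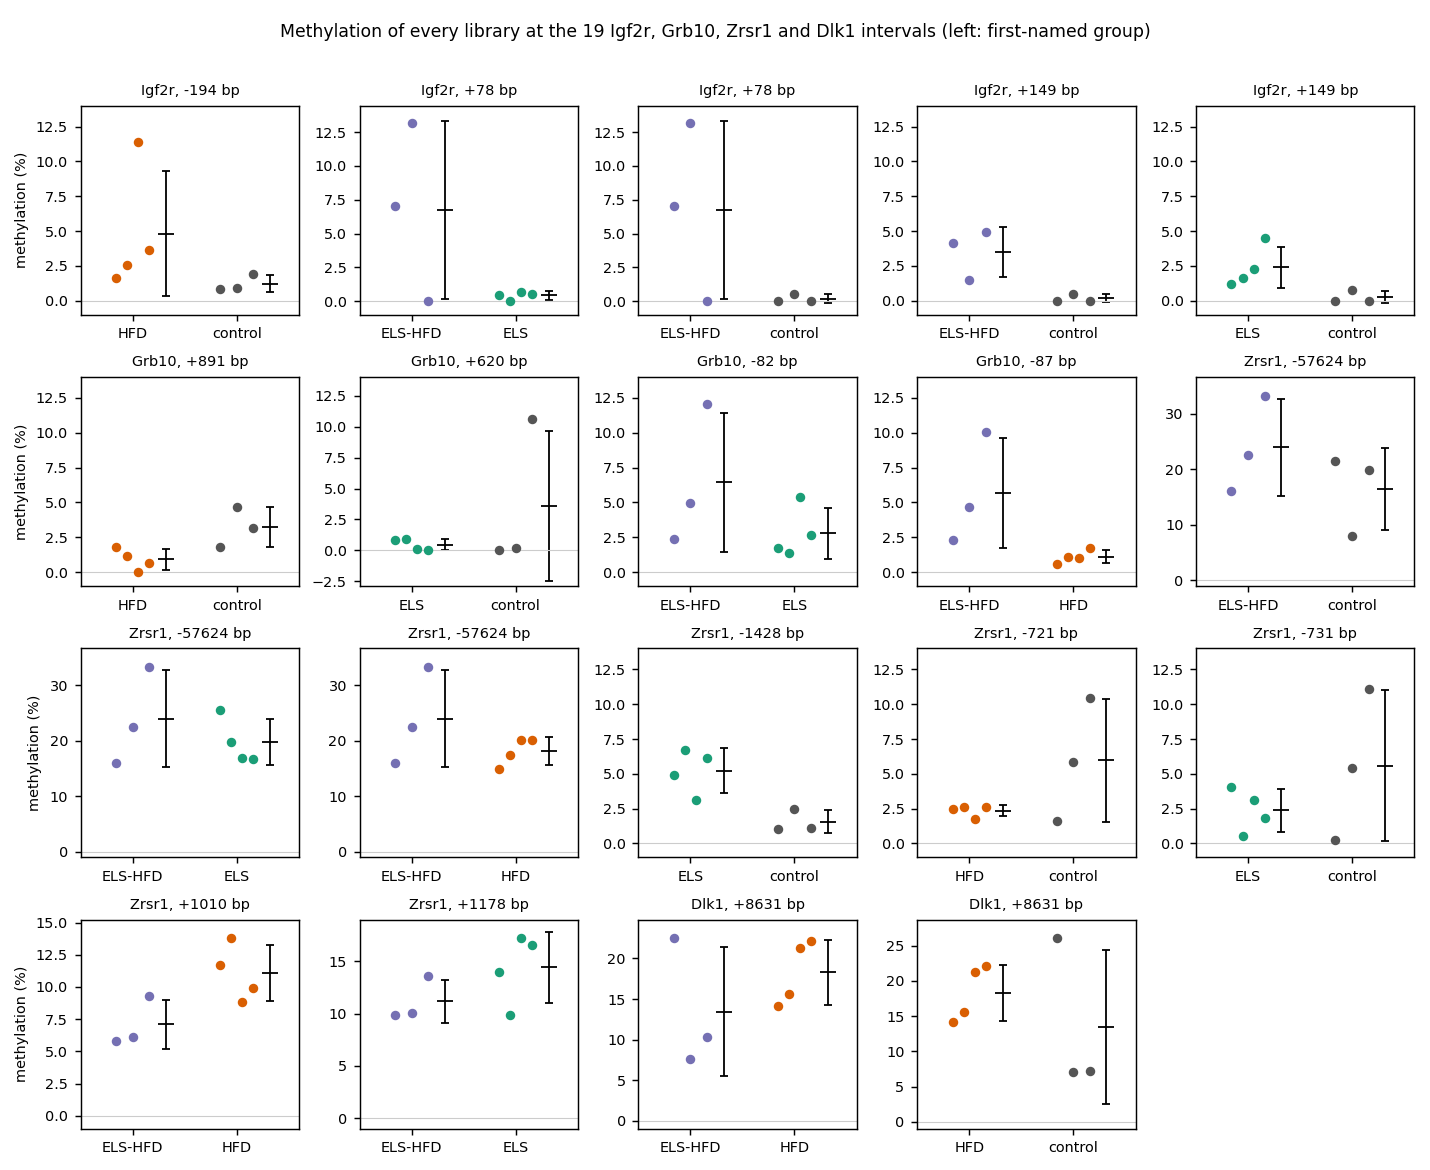
Methylation (%) of every library at the 19 intervals of Igf2r, Grb10, Zrsr1 and Dlk1, 1 panel each, with the first-named group on the left; panel titles give the distance to the gene's annotated start, black bars are mean ± SD, and the vertical axes differ between panels. Single high libraries, such as control at 10.6% in Grb10 and ELS-HFD at 33.3% in Zrsr1, set several of the differences.

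Single libraries recurred in these intervals. Columns carry no replicate number, but a column is the same library in each table: between 87.1 and 96.2% of values other than 0 and 100 were equal in the same column at identical intervals, and at most 0.0844% in another column. The third-listed ELS-HFD library was the highest of its group at 11 of the 18 member intervals of that group, and at 34.0% of all its listed intervals. These 11 are not separate loci. The locus 57624 bp from the Zrsr1 start counts 3 times, and the Grb10 promoter, the Zrsr1 exon and the downstream Gnas start 2 times each. The second- and third-listed control libraries were each the highest of their group at 7 of 16 member intervals, and at 29.3 and 37.3% of all. Leaving out 1 library moved the difference by over 1.5 times at 18 of the 30 intervals, and changed its sign at 2. Read depth is unknown for every library and interval, so counting error could not be given.

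Methylation markers of the cell type were read as far as the tables list them. Of 22 germline genes whose promoters are methylated in somatic cells, 3 were listed, in 14 intervals. Intervals beside the starts of Piwil1, of the piRNA pathway, and Dazl, a germ cell RNA-binding protein, were low, at 1.07 to 7.41% and at 1.08 to 8.19% over all libraries read. Most of the 14 intervals were intergenic, at -33511 to -23334 bp from the Piwil1 start or at -5430 bp from that of Tdrd9. Some of these were highly methylated, such as 87.8% in HFD and 91.3% in control at -33475 bp from Piwil1. Counts over the 14 thus do not measure promoters alone. The 14 intervals had the higher mean in the first-named group at 4 and the lower at 10, against 62.4% of all listed intervals lower. An unadjusted limma p under 0.05 was found at 6 of the 14 (26.1% of all), 3 of them higher (8.56% of all) and 3 lower (17.5% of all). Among these 6, the Dazl intervals (limma p 0.00300 and 0.0210) lay beside a start, and the others were intergenic. In intron 1 of Dazl methylation was 5.12, 8.19, 4.03 and 7.16% in ELS, against 2.21, 2.05 and 1.79% in control. Over an overlapping interval the ELS-HFD libraries had 1.08, 1.85 and 1.30%, and the ELS libraries 3.62, 6.21, 1.78 and 5.91%. The order of the groups was that at the Gnas locus 2403 bp upstream, while the highest Gnas library, the first-listed one, was the third highest of 4 at Dazl. At the Piwil1 start, HFD libraries had 1.87, 6.57, 3.04 and 7.41%, and control libraries 1.39, 4.50 and 1.07%. At Tdrd9, a piRNA pathway gene, methylation at -5430 bp was 0.324 ± 0.647% in HFD (SD, n = 4) and 3.45 ± 0.807% in control (n = 3). The part of other cells in these differences was not tested.

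Intervals of other imprinted genes mostly had the lower mean in the first-named group. A list of 80 of them, 44 at loci with egg-methylated regions in mouse, 10 at loci with sperm-methylated ones and 26 others, had 12 genes with 24 intervals in the tables. Of these, 21 had the lower mean in the first-named group and 3 the higher, against 62.4% lower over all listed intervals and 15 of 30 lower for the 5 genes. The 24 intervals lie at 16 separate loci and share libraries between tables, with 7 at Zfp777 and 4 at Casd1; by gene, 9 of the 12 had only lower intervals and 3 only higher ones. The authors called 0 of the 24 and limma with adjustment passed 0, with 10 of the 24 at an unadjusted p under 0.05 (26.1% of all), 9 of them lower (17.5% of all) and 1 higher (8.56% of all). By list, 13 of 14 were lower at the egg-methylated loci, 2 of 2 at the sperm-methylated ones and 6 of 8 among the others. The lists are of genes, and whether these intervals lie inside the methylated regions was not determined. Begain, of the sperm-methylated list, had 24.1% in ELS and 28.0% in control in an intron. In an exon it had 1.14% in ELS-HFD and 4.27% in control. Zdbf2, of the egg-methylated list, had 98.3% in ELS-HFD and 95.6% in ELS. In these data H19, Igf2, Meg3 and Rasgrf1, at the known sperm-methylated regions, were not among the listed genes.

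The 6 with the largest difference were Zfp777, Casd1, Ano1, Ascl2, Kcnk9 and Cdkn1c. Zfp777, a zinc finger gene, had 50.8 ± 11.7% in ELS-HFD and 66.3 ± 8.12% in control libraries (SD, n = 3 each; limma p 0.0786) at -18343 bp, in an exon of another transcript. Cdkn1c, which encodes a cyclin-dependent kinase inhibitor, and Kcnk9, a potassium channel gene, were nearly unmethylated in ELS-HFD. Cdkn1c, in an intergenic interval 15420 bp from its start, had 0, 0.833 and 0% in ELS-HFD libraries, against 1.30, 8.27 and 3.00% in control libraries. Kcnk9 had 0.455, 0.244 and 0.571% in ELS-HFD libraries, against 1.11, 9.60 and 2.72% in control libraries. Neither pair overlapped (limma p 0.0118 and 0.0256). Exon 1 of Ascl2, a placental transcription factor gene, had 0.489, 0.641 and 0.408% in ELS-HFD libraries, against 6.14, 7.38, 0.609 and 5.55% in ELS libraries (limma p 0.0105). As at the Gnas locus 2403 bp upstream, ELS-HFD was near 0 and ELS partly above it, but one ELS library lay inside the ELS-HFD range. Casd1 had 11.5 ± 6.53% in ELS-HFD (n = 3) and 17.4 ± 7.23% in ELS (n = 4), and Ano1, a chloride channel gene, 18.1 ± 9.41% in ELS-HFD and 13.3 ± 5.53% in ELS libraries; the limma p-values were 0.226 and 0.388. The Ano1 difference of 4.72 was -0.356, of the opposite sign, without the third-listed ELS-HFD library, and 8.94 and 2.49 without the first-listed ELS-HFD or the fourth-listed ELS library. That of Casd1, -5.86, ran from -9.54 to -3.18 without 1 library, the first- or second-listed of either group moving it by over 1.5 times. Without the second-listed control library, which was the highest at both, -4.05 at Kcnk9 became -1.49 and -3.91 at Cdkn1c became -1.87. Zfp777, at -15.5, was -9.38 without the third-listed ELS-HFD library.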

How the data were processed

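Sperm DNA of 14 libraries in 4 groups was measured by RRBS. Per the labels' protocols, libraries were made with the Zymo-Seq RRBS kit; per the submitters' processing notes, the tools named are Bismark, Bowtie and Trim Galore and the build is Rnor_6.0, with no versions. The 5 deposited tables carry the name of the region caller metilene, whose settings and coverage filter are not given in the sources used here. Methylation was deposited in percent per library and interval, together with CpG counts per interval, a difference of group means (a signed score in percentage points, as the authors deposited it) and p-values and q-values of the authors' caller. The labels do not spell out the table codes, which were matched to groups by letters and column numbers (3 ELS-HFD, 4 ELS, 4 HFD, 3 control). Replicate numbers are missing from the columns.

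limma 3.58.1 in R 4.3.3 was fitted to log2((percent + 1)/(100 - percent + 1)) of all intervals of a table, with Benjamini-Hochberg adjustment over the table. On simulated data it found 99 to 100% of shifts of 3 and 5 on that log2 scale. The largest member difference over all libraries was 2.17 on that scale, so detection of differences of the members' size was not tested. Exact permutation tests used scipy 1.17.1. Differences are from library means, first-named minus second group. The members, lists and tests were chosen with earlier results of these data known. All rows of the 5 genes are described; other imprinted genes are named by largest difference, up to 6. Alternatives were the percent scale, pseudocounts of 0.5 and 5, filters on level, CpGs and sex chromosomes, gene assignment, a trended prior, stricter or looser calls, medians, the deposited differences, and leaving out each library. Depth is unknown, so no counting interval is given. The Rnor_6.0 genome was not used here, and printed sequences are RefSeq windows of GRCr8.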

Additional observations from a re-analysis of the deposited data

Results flagged for a closer look

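No library of the HFD and ELS groups stood apart at the member intervals by Dixon's ratio, the gap to the nearest library divided by the range of the group, set against its 95% critical value for 4 libraries, over the 26 groups looked at. The largest ratio was 0.796, for the HFD library at 15.3% in exon 1 of the Gnas transcript, and the same library at the Igf2r promoter, at 11.4%, had 0.792. Groups of 3 libraries were not looked at.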

How the results depend on the processing

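The count of member intervals passing limma with adjustment stayed 0 in all 5 comparisons on the percent scale and with pseudocounts of 0.5 and 5. It also stayed 0 without the sex chromosomes, with a trended prior and with gene assignment inside the gene or within 5000 bp. Without intervals under 5%, or without those with fewer than 15 CpGs, it was 0 with at most 4 and 1 members left per comparison. The first filter left no member for ELS against control. The second left none for HFD against control, ELS-HFD against HFD and ELS-HFD against ELS. The count of 0 was fixed in advance there. Leaving out 1 library gave 0 to 1 for ELS-HFD against ELS and 0 in the other 4 comparisons. With an unadjusted Kolmogorov-Smirnov p under 0.05 in place of the q-value in the authors' deposited table, the calls were 6 for HFD against control, 3 for ELS against control, 3 for ELS-HFD against control, 4 for ELS-HFD against HFD and 5 for ELS-HFD against ELS. A minimum difference of 5 percentage points left 0 calls in HFD against control and 0 in ELS-HFD against HFD, where a q-value under 0.01 also left 0. The Grb10 difference in intron 1 of ELS against control was 0.310 with medians and ran from -4.91 to 0.383 without 1 library. That of ELS-HFD against ELS, 57624 bp from the Zrsr1 start, ran from -0.477 to 8.15 without 1 library. Leaving out 1 library at the 6 other imprinted genes named, chosen after seeing the data, changed the sign at Ano1 (-0.356 to 8.94) and at no other of the 6. The other 28 member differences kept their sign under every setting run for them. No paired analysis was possible because the labels pair no library of a group with a library of another group. Differences of a few percentage points at nearly unmethylated intervals cannot be weighed against counting error, since read depth is unknown.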

Other observations

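A stretch of the chromosome that carries Dlk1 had an interval in each of the 5 tables, and it was chosen after its values were seen. The intervals are intergenic, with Mir1188 as nearest promoter of record, a microRNA gene that in mouse belongs to the cluster downstream of Dlk1. They begin at 133734672 in 4 tables and at 133734766 in ELS-HFD against control. They end at 133734731 in HFD against control (13 CpGs) and in ELS-HFD against ELS (14 CpGs). The end is 133734798 in ELS against control (20 CpGs). It is 133734810 in ELS-HFD against HFD (23 CpGs) and in ELS-HFD against control (10 CpGs). The last interval does not overlap those ending at 133734731, so levels are not comparable between tables. Methylation was intermediate. In ELS-HFD against ELS, ELS-HFD libraries had 61.0, 36.2 and 33.1%, and ELS libraries 48.0, 28.8, 27.7 and 43.2%. In HFD against control, HFD libraries had 48.0, 55.1, 33.7 and 76.0%, and control libraries 47.4, 49.2 and 37.9%. The first-named group had the higher mean in these 2 comparisons, by 6.50 and 8.38 percentage points, and the lower mean in the other 3. ELS had 44.3 ± 8.73% and control 51.5 ± 3.87%, a difference of -7.18. ELS-HFD had 57.8 ± 5.80% and control 65.2 ± 9.20%, a difference of -7.39, and ELS-HFD had 49.4 ± 11.3% and HFD 57.7 ± 12.3%, a difference of -8.27 (SD; n = 4 for HFD and ELS, n = 3 for the others). As at Dlk1, the first-listed ELS-HFD library was the highest of its group. The groups overlapped in each of the 5 comparisons, and the limma p-values ran from 0.256 to 0.443.

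The distant Piwil1 interval, at -33495 bp, had 95.95, 80.5 and 63.9% in the ELS-HFD libraries, against 93.1, 93.8, 95.8 and 97.5% in the ELS libraries. The third-listed ELS-HFD library was the lowest there, and the highest at the Grb10 promoter and 57624 bp from the Zrsr1 start.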
